A study of Mus musculus with 12 samples.

Results

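Among the genes of ethanol and aldehyde clearance, 8 of 9 were higher in livers of conventionalized (CV) mice than in livers of germ-free (GF) mice, and 1, Adh7, was lower. The 9 genes were taken by their symbols from the 41128 genes of a liver RNA sequencing table, namely the alcohol dehydrogenases Adh1, Adh4, Adh5 and Adh7, the aldehyde dehydrogenases Aldh2, Aldh1b1, Aldh3a2 and Aldh9a1, and catalase (Cat). All 12 mice were C57BL/6, born germ-free, weaned on day 21 and killed at 6 weeks of age. GF mice (3 males and 3 females) stayed in sterile isolators, which keep out microbes. CV mice (3 labelled male and 3 labelled female) were littermates that spent the 3 weeks after weaning in cages with soiled bedding from the same facility. No genotype or drug differed between the groups. CV mice therefore differed from GF mice in housing as well as in microbes, and these cannot be told apart.

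Ethanol is cleared mainly in hepatocytes. Alcohol dehydrogenases in the cytosol oxidise it to acetaldehyde, and mitochondrial aldehyde dehydrogenases oxidise acetaldehyde to acetate. Catalase, in peroxisomes, can oxidise ethanol with hydrogen peroxide, and the microsomal cytochrome Cyp2e1 is a further route. The same enzyme families also remove formaldehyde, fatty aldehydes and aldehydes of amino acid and amine breakdown, and gut microbes can themselves make ethanol.

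Values below are normalized read counts, that is, the reads of a gene divided by 1 scaling factor per library. Libraries held 5993619 to 15290835 reads. 7 abundant loci (Lars2, mt-Rnr1, mt-Rnr2, Gm23935, Gm15564, Gm42418 and Mir6236) took 41.8 to 69.4% of the reads in the GF libraries and 5.39 to 21.9% in the CV libraries, so that 1834565 to 5303292 reads in GF and 6943462 to 14411498 in CV lay outside them. Mitochondrial ribosomal RNA alone made up 9.36 to 16.4% of GF reads and 1.39 to 6.32% of CV reads. The library labelled CV male 3 went against its label. It held 0 reads of the Y-linked genes of 8890529 reads, a count of 0 that allows up to 3.37e-05%, where the other libraries labelled male held 796 to 1314 such reads. Its Xist value was 2382, where the other libraries labelled male read 4.68 to 21.3 and the CV female libraries 1045 to 1090. By both measures it was a female library. It was kept under its label, so the male values, differences and p-values of each gene below include it unless stated. Counts of called genes are also given without it.

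All 9 genes passed the minimum mean value of 10. In males, 7 of 9 genes were called higher in CV and 1 lower at an adjusted p under 0.05 (limma, Benjamini-Hochberg over 11782 genes). Over all genes, 14.1% were called higher and 15.4% lower in that comparison. In females, 8 of 9 were called higher and 1 lower, against 29.8% and 26% of all genes. Averaged over the sexes the count was again 8 higher and 1 lower, against 32.3% and 28.7%. The median log2 difference of the 9 genes was 1.37 in males and 2.08 in females, and that of all genes 0.06 and 0.08. Leaving out the library labelled CV male 3 gave the same counts, 7 and 1 for males and 8 and 1 for females. Over all 11782 genes it gave 1431 higher and 1543 lower for males and 3536 and 3071 for females. Leaving out GF male 1 gave 4 higher and 1 lower for males, and 725 and 879 over all genes.

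**Figure D1:**
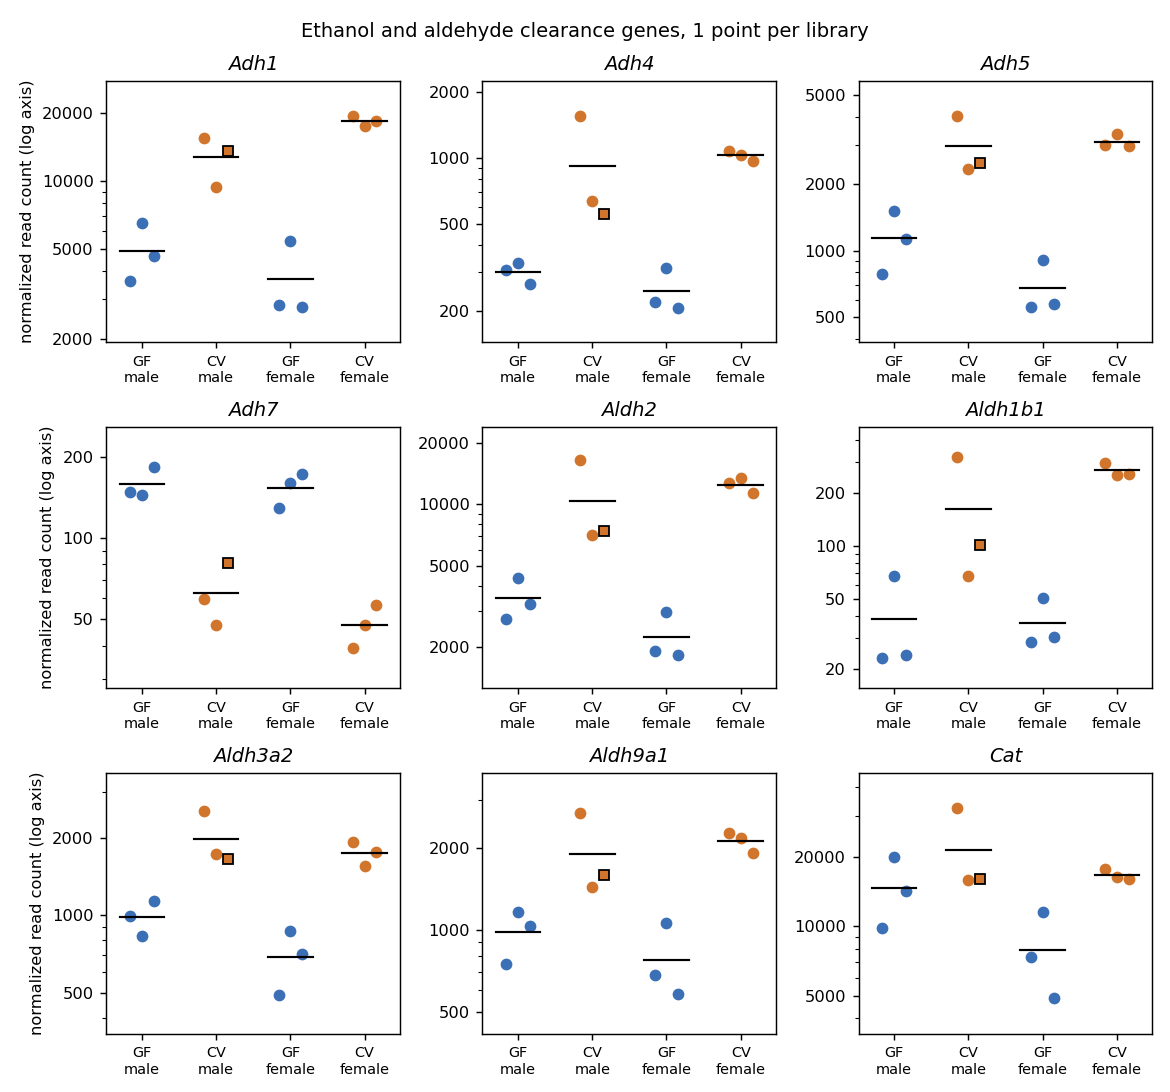
Normalized read counts (log axis) of the 9 genes in the 4 groups, 1 point per library with the group mean as a line. GF libraries are blue, CV libraries orange, and the black-edged square is the library labelled CV male 3. CV points lie above GF points in 8 panels, with overlap in males for Aldh1b1 and Cat, and below them for Adh7.

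The 4 alcohol dehydrogenase genes lie in 1 row on chromosome 3, all on the plus strand (GRCm38, GENCODE M21). Adh7 comes first (138217760 to 138233382), followed by Adh1 (138260991 to 138290698), Adh4 (138415466 to 138430892) and Adh5 (138443093 to 138455499). They span 237740 bases, and the gap between Adh7 and Adh1 is 27608 bases. Adh7 and its neighbours went in opposite directions, so the 150 bases before their start sites are shown, from RefSeq on GRCm38.p6 (plus strand, 5′ to 3′). Capitals mark CCAAT boxes, GC boxes (GGGCGG) and the nuclear receptor element AGGTCA, on either strand. For Adh5 the start that equals the GENCODE gene start is shown. The RefSeq start of Adh1 lies inside the GENCODE gene, at 138277585.
Adh7, chr3:138217623-138217772: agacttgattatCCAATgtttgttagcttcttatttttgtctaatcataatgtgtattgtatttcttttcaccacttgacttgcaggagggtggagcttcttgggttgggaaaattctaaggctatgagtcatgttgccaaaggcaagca
Adh1, chr3:138277435-138277584: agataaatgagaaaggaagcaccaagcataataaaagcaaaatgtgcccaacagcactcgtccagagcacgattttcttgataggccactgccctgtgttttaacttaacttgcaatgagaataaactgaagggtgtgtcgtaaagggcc
Adh4, chr3:138415347-138415496: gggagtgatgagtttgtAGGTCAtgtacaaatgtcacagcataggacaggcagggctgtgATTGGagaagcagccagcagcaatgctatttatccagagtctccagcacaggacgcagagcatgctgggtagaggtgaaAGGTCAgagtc
Adh5, chr3:138442943-138443092: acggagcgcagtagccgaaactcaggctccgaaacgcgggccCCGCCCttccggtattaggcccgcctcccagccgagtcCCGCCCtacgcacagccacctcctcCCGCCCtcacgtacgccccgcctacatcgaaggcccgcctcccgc

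No motif searched was present in all 4 windows. AGGTCA stood at positions -133 and -11 before the start of Adh4, and a reversed CCAAT box at -90. Adh5 had 3 GC boxes, at -108, -70 and -45, and 26 CpG dinucleotides in its window of 300 bases (250 before and 50 after the start), where the median promoter had 7. Adh7 had CCAAT boxes at -233 and -138 and the TATA box TATAAA at -202. None of these letters was found in the Adh1 window. In 32851 promoter windows of that length, AGGTCA was present in 16.3%, CCAAT in 37.4%, GGGCGG in 35.7% and TATAAA in 13.6%, on either strand. A match is a description of the letters and no evidence of binding.

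Adh1 (ENSMUSG00000074207), the classical liver enzyme for ethanol, read 3601, 6525 and 4662 in GF males and 15540, 9429 and 13580 in CV males. In females it read 2817, 5426 and 2776 in GF and 19391, 17624 and 18462 in CV. No CV library overlapped a GF library in either sex, and the CV females lay closest together. CV means were 2.61-fold higher in males and 5.03-fold higher in females. On the log2(value + 1) scale the differences were 1.39 ± 0.35 (SE, adjusted p = 0.00910, limma) and 2.41 ± 0.35 (adjusted p = 4.66e-05). The male call was lost without GF male 1 (adjusted p = 0.0545). Adh1 shares 136 exon bases with Gm16559 on the opposite strand.

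Adh4 (ENSMUSG00000037797), a dehydrogenase active on retinol and on ethanol at high concentrations, read 309, 333 and 266 in GF males and 1563, 633 and 556 in CV males. Female values were 220, 314 and 207 in GF and 1082, 1031 and 973 in CV. All CV livers exceeded all GF livers, and among CV males 1 library stood well above the others. The rise was 1.44 ± 0.32 on the log2 scale in males (adjusted p = 0.00477, limma) and 2.08 ± 0.32 in females (adjusted p = 7.22e-05).

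Adh5 (ENSMUSG00000028138), the glutathione-dependent formaldehyde dehydrogenase found in most tissues, read 784, 1512 and 1125 in GF males and 4040, 2329 and 2473 in CV males. Its female values were 556, 907 and 575 in GF and 2994, 3332 and 2948 in CV. The groups did not overlap. The log2 difference was 1.37 ± 0.30 in males (adjusted p = 0.00451, limma) and 2.22 ± 0.30 in females (adjusted p = 2.84e-05).

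Adh7 (ENSMUSG00000055301), known chiefly from stomach and oesophagus, where it oxidises retinol and ethanol, went the other way. It read 148, 145 and 184 in GF males and 59.3, 47.7 and 80.9 in CV males, and 130, 160 and 173 in GF females and 39.1, 47.7 and 56.6 in CV females. Every CV library lay below every GF library, the highest CV value being that of the library labelled CV male 3. GF means were 2.54-fold higher in males and 3.22-fold higher in females. The log2 difference was -1.35 ± 0.26 in males (adjusted p = 0.00227, limma) and -1.67 ± 0.26 in females (adjusted p = 7.92e-05). Shares among the 4 alcohol dehydrogenases were taken from values per kilobase of exon. As a share of that sum, Adh7 was 1.10 to 2.96% in the 6 GF livers and 0.103 to 0.308% in the 6 CV livers. The share of Adh1 ranged from 80.2 to 85.1% in GF and from 79.1 to 87.6% in CV, and these ranges overlapped.

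An exon of the gene 0610031O16Rik lies on the opposite strand of Adh7 and overlaps its exons by 108 bases. 0610031O16Rik read 243 to 407 in GF and 158 to 245 in CV, above Adh7 itself, and was lower in CV by -0.65 ± 0.15 on the log2 scale averaged over the sexes (adjusted p = 0.00113, limma). Adh7's own averaged difference was -1.51 ± 0.18 (adjusted p = 5.68e-06). The libraries were made with a stranded kit, but whether strand was used in counting is not given in the sources used here, so reads of the overlap cannot be assigned to 1 gene. Markers of gastric and intestinal epithelium were near 0. Of the 7 listed (Gkn1, Gkn2, Muc5ac, Tff1, Vil1, Cdx2 and Muc2) 6 were in the table. They summed to 0 to 3.99 in GF and 0.520 to 6.36 in CV, and 2 were at 0 in all libraries.

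**Figure D2:**
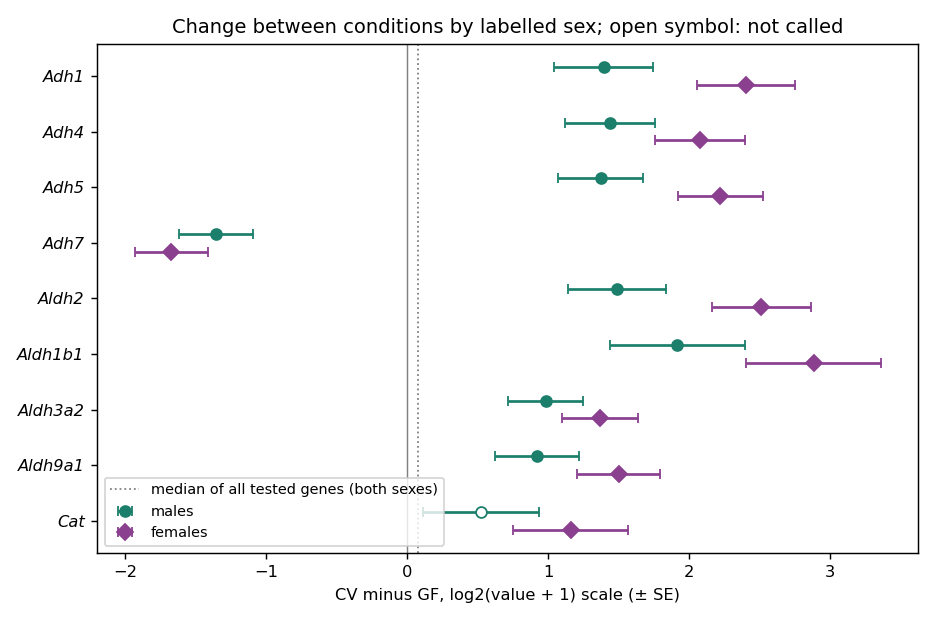
CV minus GF difference of each gene on the log2(value + 1) scale with its standard error, for males (circles) and females (diamonds). An open symbol is not called at an adjusted p under 0.05 (limma), and the dotted line is the median of all tested genes. Adh7 alone lies left of 0, and the open symbol is Cat in males.

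Aldh2 (ENSMUSG00000029455, chromosome 5, 121566027 to 121593824, minus strand), the mitochondrial enzyme that does most of the oxidation of acetaldehyde in liver, read 2753, 4357 and 3269 in GF males and 16493, 7072 and 7417 in CV males. In GF females it read 1908, 2961 and 1832, and in CV females 12686, 13428 and 11315. CV livers were above GF livers in both sexes without overlap, by 2.98-fold in males and 5.59-fold in females. The log2 difference was 1.49 ± 0.35 (adjusted p = 0.00642, limma) and 2.51 ± 0.35 (adjusted p = 3.40e-05).

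Aldh1b1 (ENSMUSG00000035561, chromosome 4, 45799022 to 45804604, plus strand), a second mitochondrial enzyme that accepts acetaldehyde, was the lowest of the 9 genes in GF livers per length. It read 23.3, 67.9 and 24.1 in GF males and 321, 67.6 and 102 in CV males. In females the values were 28.7, 50.5 and 30.7 in GF and 297, 253 and 256 in CV. The female groups were far apart, while GF male 2 and CV male 2 read nearly the same. The log2 difference was 1.92 ± 0.48 in males (adjusted p = 0.00898, limma) and 2.88 ± 0.48 in females (adjusted p = 1.35e-04). In males it was 1.27 without CV male 1, and the call was lost without GF male 1 (adjusted p = 0.0502).

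Aldh3a2 (ENSMUSG00000010025, chromosome 11, 61223417 to 61267464, minus strand), the microsomal fatty aldehyde dehydrogenase, read 996, 826 and 1138 in GF males and 2531, 1734 and 1654 in CV males. Female values were 489, 870 and 709 in GF and 1917, 1551 and 1755 in CV. No values overlapped between GF and CV. The differences were 0.98 ± 0.27 in males (adjusted p = 0.0133, limma) and 1.37 ± 0.27 in females (adjusted p = 4.86e-04). With libraries scaled to their reads outside the abundant loci the male value was 0.68 and was not called (adjusted p = 0.0586).

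Aldh9a1 (ENSMUSG00000026687, chromosome 1, 167349991 to 167368532, plus strand), which oxidises an aldehyde on the way to carnitine, read 749, 1160 and 1037 in GF males and 2699, 1433 and 1585 in CV males. It read 681, 1064 and 583 in GF females and 2274, 2187 and 1926 in CV females. Again the groups did not overlap. The rise was 0.92 ± 0.30 in males (adjusted p = 0.0292, limma) and 1.50 ± 0.30 in females (adjusted p = 5.38e-04). In males it was called in 22 of 28 alternative settings that add no covariate. The call was lost without GF male 1 (adjusted p = 0.132, limma), GF male 3 (adjusted p = 0.0653) or CV male 1 (adjusted p = 0.109). It was also lost with no minimum mean value (adjusted p = 0.0508) and with a trend with gene length and GC content removed (adjusted p = 0.0510).

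The 4 aldehyde dehydrogenases shifted among themselves. Aldh2 made up 53.4 to 62.1% of their summed values per kilobase of exon in GF and 64.2 to 71.7% in CV. These ranges did not overlap. Aldh9a1 went from 23.4 to 29.9% in GF to 17.3 to 20.8% in CV, also without overlap. The share of Aldh3a2 was 10.7 to 18.9% in GF and 7.56 to 14.4% in CV, and that of Aldh1b1 0.906 to 2.16% and 1.37 to 3.58%, both with overlap. These shares are descriptions and were given no test.

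Cat (ENSMUSG00000027187, chromosome 2, 103453849 to 103485160, minus strand), the peroxisomal enzyme that breaks down hydrogen peroxide, showed the smallest difference of the 9 genes. It read 9799, 19990 and 14226 in GF males and 32421, 15866 and 16027 in CV males. Female values were 7333, 11528 and 4897 in GF and 17668, 16326 and 16002 in CV. The males overlapped, 1 CV male being far above all other libraries, while all CV females exceeded all GF females. The log2 difference was 0.52 ± 0.41 in males (adjusted p = 0.353, limma) and 1.16 ± 0.41 in females (adjusted p = 0.0245). The male value was called in 0 of 28 settings without covariates and the female value in 19 of 28. The female call was lost without any 1 of GF female 1, GF female 3 and the 3 CV females (adjusted p = 0.0555 to 0.116). Averaged over the sexes the difference was 0.84 ± 0.29 (adjusted p = 0.0194), and it was not called without GF male 1 (0.71) or GF female 3 (0.69).

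In males every CV library was above every GF library for 6 of the 9 genes and below for 1, where 22% and 21.1% of all tested genes had such gaps. With the library labelled CV male 3 left out it was again 6 and 1, where 26.3% and 24.5% of all genes had them. In females it was 8 above and 1 below, where 34% and 31% of all genes had them. Within the CV group, the libraries labelled CV male 2 and CV male 3 read below the other 4 CV libraries for 6 of the 9 genes and overlapped with them for Adh7, Aldh3a2 and Cat. The share of all genes with such a gap was not counted, so the 6 of 9 is not read as a trait of these genes. Both libraries also had more mitochondrial ribosomal RNA, 5.89 and 6.32% of their reads, than the other 4 CV libraries. Without both of them the male log2 difference, then resting on 1 CV library assumed to vary like the others, ran from -1.40 to 3.21 over the 9 genes. It was 3.21 for Aldh1b1, 2.37 for Adh4, 2.28 for Aldh2 and 1.48 for Aldh9a1. The male difference of Adh1 did not exceed 1.71 in any alternative setting.

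**Figure D3:**
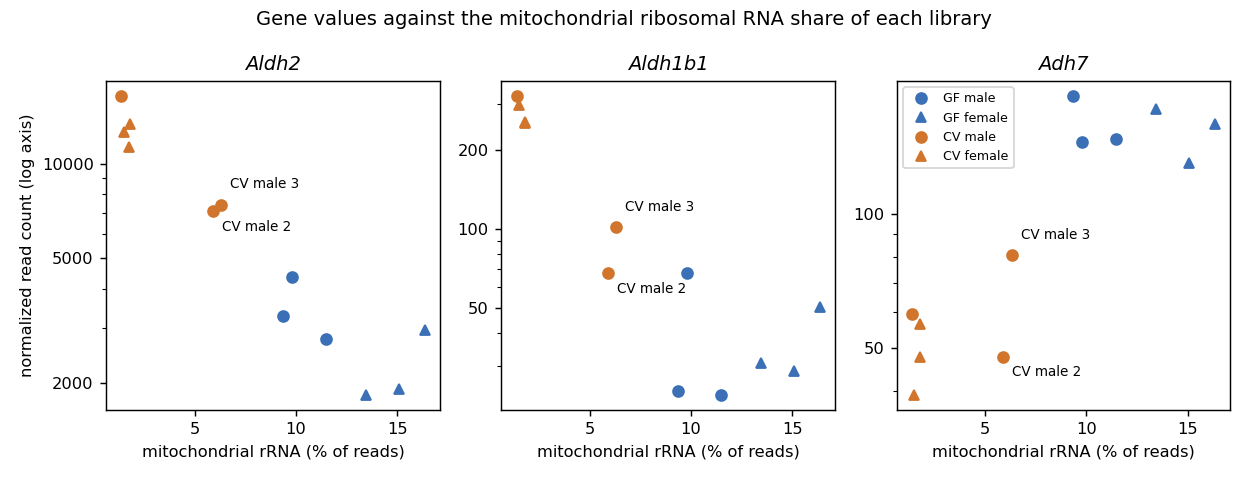
Normalized read counts (log axis) of Aldh2, Aldh1b1 and Adh7 against the percentage of a library's reads from mitochondrial ribosomal RNA, 1 point per library. GF libraries lie between 9.36 and 16.4% and CV libraries between 1.39 and 6.32%, the libraries labelled CV male 2 and CV male 3 being nearest to GF, so condition and this share run together.

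The change itself was not called different between the sexes for any of the 9 genes (0 of 9, adjusted p = 0.430 to 0.698, limma), where 0% of all genes were called. At an unadjusted p under 0.05 it was 0 of 9 genes and 1382 of 11782. edgeR with TMM factors also called 0 of 9 genes, with 0 at that level, and DESeq2 0 of the 7 it tested, with 2 at that level. The female minus male difference was largest for Aldh2 (1.03 ± 0.49) and Adh1 (1.01 ± 0.49), and it was above 0 for all genes but Adh7 (-0.32 ± 0.37). The count at an unadjusted p under 0.05 rose to 8 of 9 with libraries scaled to all reads (smallest adjusted p = 0.0643, limma) and to 6 of 9 without CV male 1 (smallest adjusted p = 0.0600). It was 3 of 9 without GF male 1, 3 of 9 without GF female 2 and 2 of 9 with TMM factors, and 0 of 9 were called in each. Over all 11782 genes the count also rose, from 1382 to 2937, 3036, 1925, 2223 and 1417 in the same order. Male and female levels averaged over the conditions were also not called different for any of the 9 genes (adjusted p = 0.465 to 0.994), where 1.16% of all genes were called. At an unadjusted p under 0.05 it was again 0 of 9 by limma, while edgeR with TMM factors and DESeq2 each had 1 of 9 at that level and 0 called. By limma, scaling to all reads, scaling to reads outside the abundant loci, removing the length and GC trend and leaving out GF female 2 each had 2 of 9 and 0 called. Over all tested genes these settings had 1466, 1383, 1345 and 1835 at that level, against 1296 in the main fit.

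The steps of the pathway were compared within a library by the log2 ratio of the values of 2 genes, which does not depend on how libraries are scaled. The ratio of Cat to Adh1 ran from 0.82 to 1.62 in GF (median 1.41) and from -0.21 to 1.06 in CV (median 0.06). It was lower in CV, the difference being -0.87 for males, -1.25 for females and -1.06 for their mean (exact two-sided permutation within labelled sex, p = 0.005, the smallest this design allows, adjusted p = 0.015 over 3 ratios). Within each sex the CV values lay below the GF values. The ratio of Adh1 to Aldh2, the first over the second step of ethanol oxidation, ran from 0.39 to 0.87 in GF and from -0.09 to 0.87 in CV. Its difference was -0.10 (exact permutation p = 0.55, adjusted p = 0.55). With a trend with gene length and GC content removed from each library it was -0.72 and passed (exact permutation, adjusted p = 0.0075). For Aldh1b1 over Aldh2 the difference was 0.40 (exact permutation p = 0.095, adjusted p = 0.142) and did not pass.

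**Figure D4:**
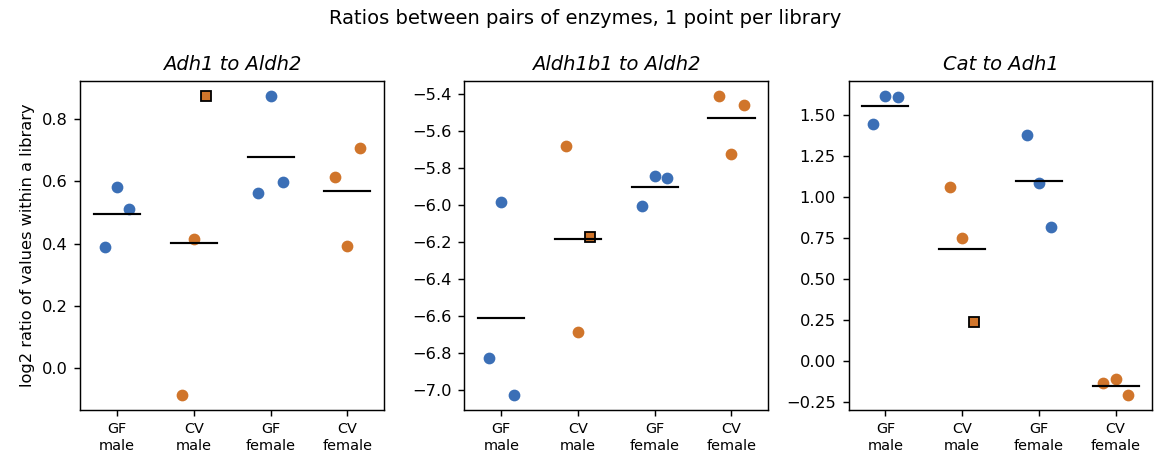
Log2 ratios of the values of 3 gene pairs within each library, by group, 1 point per library with the group mean as a line. The CV points lie below the GF points of the same sex for Cat to Adh1 and overlap for Adh1 to Aldh2. The black-edged square is the library labelled CV male 3.

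Levels between genes were compared as values per kilobase of exon. In GF livers the order of the means was Cat (4323), Adh1 (1926), Aldh2 (555), Aldh9a1 (260), Adh4 (190), Adh5 (168), Aldh3a2 (149), Adh7 (41.3) and Aldh1b1 (16.3). Over the 6 GF libraries the ranges of Cat and Adh1 overlapped, as did those of each neighbour from Aldh9a1 to Aldh3a2. In CV livers the order was Cat (7291), Adh1 (7018), Aldh2 (2224), Adh4 (671), Aldh9a1 (596), Adh5 (558), Aldh3a2 (330), Aldh1b1 (94.0) and Adh7 (14.6). The first place of Cat by the mean rested on CV male 1, where Cat was at 12407 per kilobase. By the median Adh1 (7426) came before Cat (6191), and in the 3 CV females Adh1 (7893 to 8684) lay above Cat (6124 to 6761) without overlap. Over the 6 CV libraries Cat and Adh1 overlapped, as did Adh4, Aldh9a1, Adh5 and Aldh3a2 in turn. Among the 11731 genes with a length, Cat held rank 61 in GF and 64 in CV, whereas Adh1 held rank 129 and 65. Adh7 went from rank 3631 to 6846 and Aldh1b1 from 7038 to 2248, so that these 2 changed places at the bottom of the order.

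Across the 12 libraries, the 28 pairs among the 8 genes other than Adh7 had a Pearson correlation of 0.71 to 0.99 (median 0.93, on the log2 scale), and Adh7 correlated with them at -0.90 to -0.58. The points share the condition, the depth and the ribosomal RNA share of their libraries. The genes most like Adh1 were Lipa (0.993), Ube2z (0.992) and Laptm4a (0.992). For Aldh2 they were Txndc15 (0.996), Lyplal1 (0.995) and Derl1 (0.994), and for Cat Mettl7a1 (0.970), Dbt (0.968) and Scp2 (0.968). Likeness was common for the dehydrogenases, 1343 of 11159 genes correlating above 0.9 with Adh1 and 1482 with Aldh2. It was rarer for Cat, with 181 genes.

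Other enzymes of the same families and routes mostly rose as well. Of 19 other alcohol and aldehyde dehydrogenases 12 were abundant enough to test, and 9 were called higher in CV and 0 lower averaged over both (males alone 4, females alone 8). Over all genes 32.3% were called higher averaged, 14.1% in males and 29.8% in females. Leaving out the library labelled CV male 3 gave 10, 4 and 8 for this list, and 3777, 1431 and 3536 over all 11782 genes. Scaling to reads outside the abundant loci gave 2 of 12, with 1 in males and 1 in females, and Aldh4a1 was not called under it. That scaling called 2145 of all 11782 genes higher averaged, 875 in males and 1858 in females. The list was then near or below the share over all genes. With the deposited scaling the named genes were as follows. Aldh7a1, which works in lysine breakdown, was higher by 1.61 ± 0.24 (adjusted p = 3.21e-05, limma), and Aldh4a1, of proline breakdown, by 0.92 ± 0.20 (adjusted p = 7.96e-04). Of 15 other enzymes of ethanol, aldehyde and acetate metabolism 13 were tested, with 10 higher and 1 lower (8 higher in males, 10 in females). Averaged, 32.3% of all genes were called higher and 28.7% lower. Scaled to reads outside the abundant loci this list had 9 higher and 2 lower. Akr7a5, an aldehyde reductase, rose by 2.10 ± 0.21 (adjusted p = 1.45e-06) and Glo1, the first enzyme of methylglyoxal removal, by 1.70 ± 0.19 (adjusted p = 2.40e-06). Aox1, an aldehyde oxidase, fell by 0.50 on the log2 scale (adjusted p = 0.0359), although it was not called scaled to all reads or with TMM factors, nor without the library labelled CV male 3, where that list had 10 higher and 0 lower (7 higher in males). Cyp2e1, named here after its values were seen, read 11245 to 28398 in GF and 46675 to 71846 in CV, higher by 1.58 ± 0.28 (adjusted p = 1.61e-04).

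Catalase works beside peroxisomal oxidases that make hydrogen peroxide. All 8 tested of 9 such oxidases were called higher in CV averaged over the sexes. Of these, males alone had 1 and females alone 8, where 14.1% and 29.8% of all genes were called higher and 32.3% averaged. The male count was thus near the share over all genes. Leaving out the library labelled CV male 3 gave 8, 3 and 8 for the oxidases, and 3777, 1431 and 3536 over all 11782 genes. Scaled to reads outside the abundant loci, 4 of 8 were called averaged, 0 in males and 3 in females. Over all 11782 genes that scaling called 2145, 875 and 1858 higher. Uox, urate oxidase, rose by 1.62 ± 0.28 (adjusted p = 1.38e-04, limma) and Paox, a polyamine oxidase, by 0.98 ± 0.18 (adjusted p = 2.13e-04). Among 10 other enzymes that remove peroxide or superoxide, 9 were higher and 0 lower (males alone 8, females alone 9). The male count was 5 when the library labelled CV male 3 was left out, and the scaling outside the abundant loci kept 9 averaged. Prdx6, a peroxiredoxin, was higher by 2.00 ± 0.22 (adjusted p = 2.91e-06) and Gpx4, which reduces lipid peroxides, by 2.05 ± 0.25 (adjusted p = 5.43e-06). Of 14 genes of peroxisome import and assembly, 9 were higher, 10 without the library labelled CV male 3, 6 scaled to reads outside the abundant loci and 13 scaled to all reads. Pex16 rose by 1.38 ± 0.17 (adjusted p = 5.46e-06) and Pex7 by 1.64 ± 0.20 (adjusted p = 6.08e-06). The median log2 differences of these 5 lists were 0.84, 1.47, 0.92, 1.54 and 0.82 in the order given, against 0.07 for all genes.

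Markers of some cell types also moved. Averaged over the sexes, 32.3% of all genes were called higher and 28.7% lower. In a whole liver, fewer cells of a type and less RNA per cell cannot be told apart. Of 10 hepatocyte markers 7 were called higher in CV averaged over the sexes and 0 lower, and their summed value was 109815 to 443198 in GF and 372646 to 598839 in CV, with none at 0. Of 6 lymphocyte markers 5 were tested and all 5 were lower, summing to 344 to 598 in GF and 75.5 to 156 in CV. For Kupffer cell and macrophage markers it was 5 of 8 higher (sum 998 to 2184 in GF and 1519 to 3183 in CV), and for sinusoidal endothelial markers 2 of 7 lower (1369 to 3966 and 648 to 1814). The 2 of 7 was near the share of all genes called lower. Of 7 stellate cell markers 1 was higher and 1 lower (1425 to 2969 and 1594 to 2949). Bile duct markers summed to 454 to 1062 in GF and 527 to 1616 in CV. Of their 5 tested genes 0 were called by limma and by edgeR with TMM factors and 0 had an unadjusted p under 0.05 in either, while DESeq2 called 1 of 6. Exocrine pancreas markers summed to 37.7 to 294 in GF and 173 to 363 in CV, with 1 of 1 tested, Cela1, higher. Nearly all of that sum was Cela1, at 34.7 to 290 in GF and 167 to 355 in CV. The other markers of that list read at most 9.03 in any library. Adipose markers summed to 0 to 28.3 and 0 to 45.3, with none tested and 1 at 0 in all libraries. Without the library labelled CV male 3 the averaged counts were 6 higher for hepatocyte and 4 for Kupffer cell markers, and the other counts did not move. Over all 11782 genes 3777 were then called higher and 3311 lower. Scaled to reads outside the abundant loci, hepatocyte markers had 2 higher and 1 lower, Kupffer cell markers 3 higher, sinusoidal markers 4 lower and stellate cell markers 0 higher and 1 lower. Of all 11782 genes, 2145 were then called higher and 4864 lower. Scaled to all reads, 5926 of all 11782 genes were called higher and 1614 lower. It was then 8, 8 and 6 higher for hepatocyte, Kupffer and stellate cell markers, 1 higher and 2 lower for sinusoidal and 2 higher for bile duct markers. The 5 lymphocyte markers were lower in each. The part of these shifts in the values of the 9 genes was not tested.

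The sizes depended on how libraries were scaled, while each of the 9 genes kept its direction under the 4 scalings compared. Scaled to all reads, the median of all genes moved from 0.07 to 0.62 on the log2 scale averaged over the sexes. Called genes were then 5926 higher and 1614 lower, in place of 3807 and 3387. Scaled to the reads outside the abundant loci, it was -0.38 with 2145 higher and 4864 lower. Adh7 was at -0.96 and -1.97 under these scalings and Aldh1b1 at 2.95 and 1.95. Cat was at 1.40 and 0.38, the latter not called (adjusted p = 0.125). Aldh3a2 and Aldh9a1 were at 0.72 and 0.75 under the second. With TMM factors the 9 differences ran from -1.43 to 2.49.

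**Figure D5:**
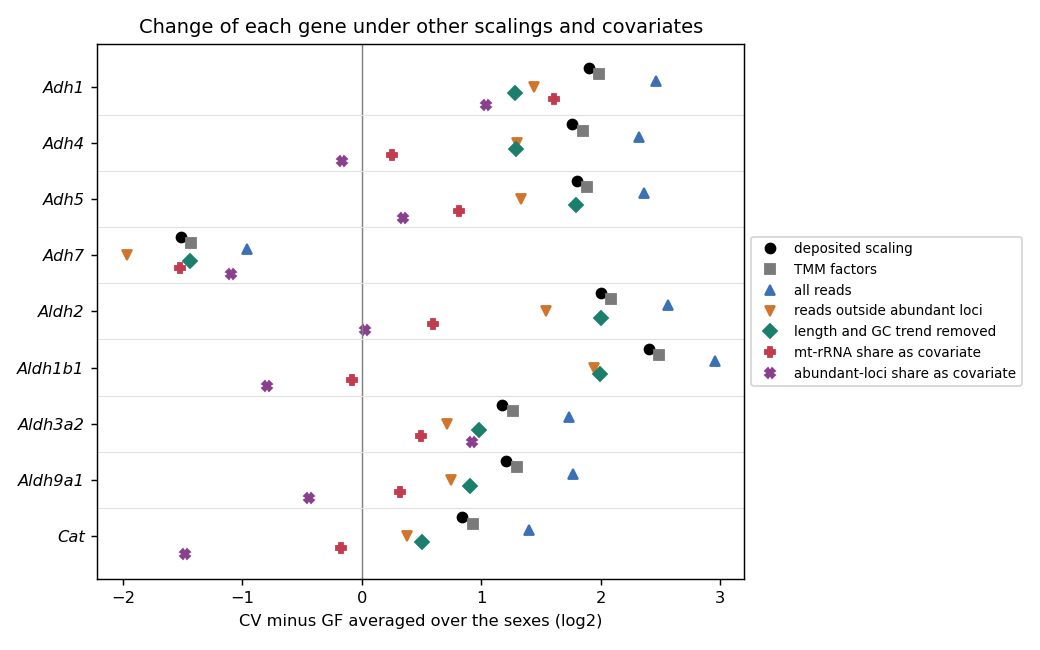
CV minus GF difference of each gene averaged over the sexes (log2) with 4 ways of scaling the libraries, with a length and GC trend removed, and with a ribosomal RNA share as a covariate. Under the scalings and the trend removal 8 genes stay right of 0 and Adh7 left of it. With the covariates, where 0 of 9 genes were called, Aldh1b1 and Cat cross 0 with either. Adh4 (-0.16) and Aldh9a1 (-0.44) also cross 0 with the share of the abundant loci.

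With the share of mitochondrial ribosomal RNA of each library as a covariate, 0 of 9 genes were called in either sex or averaged over both (limma). At an unadjusted p under 0.05 it was 1, 0 and 1 of 9. With the share of the abundant loci it was also 0 of 9 in each, and 0 at an unadjusted p. Over all genes the covariates left 0 to 13 calls. The 4 groups accounted for 93.5% of the variance of the first share and 95.3% of that of the second, so condition and RNA composition cannot be told apart in these libraries. With the covariates the averaged difference of Adh7 was -1.52 and -1.10, that of Adh1 1.61 and 1.04, that of Aldh2 0.59 and 0.03, and that of Cat -0.17 and -1.48.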

How the data were processed

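The expression table of 41128 genes by 12 liver libraries was analysed as deposited (no column was left unassigned). Samples were grouped by condition and labelled sex from their titles, 3 per group, 1 mouse each. RNA was extracted from snap-frozen liver and libraries were made with a stranded mRNA kit. The submitters' processing notes name HTSeq 0.6.1p1, DESeq2 and GRCm38. The aligner, the annotation and the strand setting of the counting are not given in the sources used here, and the paper listed for the series concerns another experiment, so it was used for style alone. The deposited signal of a gene is its read count divided by 1 size factor per library. Whole reads were recovered from it, 100% of values being whole within 0.01 reads, and the factors equalled DESeq2's median ratios over 12512 genes.

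limma 3.58.1 (R 4.3.3) was fitted to log2(value + 1) of the 11782 genes with a mean value of at least 10, with 4 group means over all 12 libraries, a variance trend and Benjamini-Hochberg adjustment over all tested genes. A call is an adjusted p under 0.05. A fold change on the log2(value + 1) scale understates that of low genes. edgeR 4.0.16 and DESeq2 1.42.0 were run on the recovered reads as alternatives, beside other scalings, filters, pseudocounts, covariates, a replicate block and the loss of each library. The fit was tested on simulated counts with the same spread for all genes and no difference in ribosomal RNA share between the groups. That test therefore does not bear on the joint shift of condition and RNA composition. Limits of a count of 0 cover counting error only (3 reads). Genes named outside the 9 were the 2 of each list with the smallest adjusted p in each direction, and the 3 most like Adh1, Aldh2 and Cat. 1 gene that this rule names is not reported here. Of the 9 genes 8 had a RefSeq promoter entry. Lengths and positions come from GENCODE M21, which held 97.9% of the gene IDs. The 9 genes, the lists and the tests were chosen with earlier results of these data known.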

Additional observations from a re-analysis of the deposited data

Results flagged for a closer look

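In 24 groups of 6 libraries (each gene within a condition, and the 3 ratios) 1 library stood apart from the rest by Dixon's test. This was CV male 1 for Cat, at 32421 where the other 5 CV libraries read 15866 to 17668. Its gap to the nearest library was 0.850 of the range of the CV group, above the critical value of 0.625. Chance gives about 1 such group in 20. CV male 1 also had the highest CV value for Adh4, Adh5, Aldh2, Aldh1b1, Aldh3a2 and Aldh9a1, and the lowest mitochondrial ribosomal RNA share, 1.39%.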

How the results depend on the processing

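In 28 alternatives without a covariate, the 9 genes kept their direction in males, in females and averaged over the sexes, and 0 of 9 were called for the sex difference in the change or for sex. Calls lost were those given with the genes above, Cat averaged over the sexes in 6 of the 28 (0.38 to 0.84 on the log2 scale where lost), and Cat in females in 9. Leaving out 1 library each gave 5 to 8 of the genes called in males, the lowest without GF male 1 (Adh1, Aldh1b1 and Aldh9a1 lost), 8 to 9 in females and 8 to 9 averaged, and 0 to 0 for both sex tests. Over all genes the same omissions gave 1604 (without GF male 1) to 3884 calls in males (2135 without GF male 3 and 2183 without CV male 1), 5518 to 6964 in females, 6601 to 7445 averaged, 0 to 291 for the sex difference in the change (291 without CV male 1 and 4 without the library labelled CV male 3), and 90 to 205 for sex (90 without GF male 3 and without CV female 1).

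With the mitochondrial ribosomal RNA share as a covariate 0 of 9 genes were called in males, females and averaged, with 3, 0 and 0 calls over all genes and 1 for the sex difference in the change. Reversed values were -0.030 for Adh4, -0.59 for Aldh1b1 and -0.26 for Cat in females, and -0.081 for Aldh1b1 and -0.17 for Cat averaged, and Cat in males, not called in the first place, was at -0.087. With the share of the abundant loci it was again 0 of 9, with 13, 0 and 7 calls over all genes and 85 for sex. Values reversed were -0.21 for Aldh1b1 and -0.18 for Aldh9a1 in males, -0.48 for Adh4, -0.12 for Aldh2, -1.38 for Aldh1b1, -0.71 for Aldh9a1 and -1.94 for Cat in females, and -0.16 for Adh4, -0.80 for Aldh1b1, -0.44 for Aldh9a1 and -1.48 for Cat averaged, with Cat in males at -1.03. The cause was not tested, since the shares run with the condition.

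A threshold of 0.01 gave 1390 calls over all genes in males and 73 for sex. It called 6, 8 and 8 of the 9 genes in males, females and averaged, losing Aldh3a2 and Aldh9a1 in males, Cat in females and Cat averaged. The sex difference in the change had 11 calls scaled to all reads, 105 by edgeR without a filter, 26 by DESeq2 and 1 without the libraries labelled CV male 2 and CV male 3, an omission chosen after seeing the data. Sex had 350 calls by edgeR without a filter, 262 by DESeq2 and 245 without those libraries. The Cat to Adh1 ratio kept its sign and its call in 16 alternatives (-1.15 to -0.77, adjusted p 0.0075 to 0.03, exact permutation), from -1.15 to -0.95 with 1 library left out. The Adh1 to Aldh2 ratio ran from -0.22 to 0.021 with 1 library left out (0.021 without CV male 1) and was -0.72 with the length and GC trend removed (adjusted p = 0.0075, exact permutation). The Aldh1b1 to Aldh2 ratio ran from 0.28 to 0.56 (0.56 without GF male 2, adjusted p = 0.03, exact permutation). It was -0.014 with that trend removed and 0.65 without the libraries labelled CV male 2 and CV male 3. The causes of these shifts were not tested.

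No pairing of the mice by replicate number was seen, as the deviations of same-numbered libraries correlated at -0.23 to 0.40 and those of other pairs at -0.41 to 0.39. This cannot exclude a pairing by litter. The labels do not say which mice shared a litter, and no fit took litters into account. With a replicate block 8, 9 and 9 of the 9 genes were called in males, females and averaged, and the block gave 3466, 6630 and 7228 calls over all genes, 0 for the sex difference in the change and 144 for sex. Depth limits GF libraries most, and Aldh1b1, at 23.3 to 67.9 in GF, rests on the fewest reads.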
